A study of Homo sapiens with 3 samples.

Results

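VIM, the gene of the intermediate filament protein vimentin, VIM-AS1, its named antisense RNA, and FN1, the gene of the matrix glycoprotein fibronectin, were followed through 3 RNA sequencing libraries of HEK293 cells. The 3 genes were taken by name from the 26485 gene rows of each table, and all 3 were present. The rule uses names, but the genes were selected on counts that were already known (the high count of VIM-AS1 beside VIM, and FN1 as the most counted mesenchymal gene), so their levels and the order of VIM and VIM-AS1 are given as a description with no test. HEK293 is a widely used human cell line that goes back to embryonic kidney cells carrying adenovirus DNA. The series holds a single condition, grown in DMEM with fetal calf serum, as 3 replicates (n = 3) that form 1 group. There was no other genotype, treatment or time to compare with. Nothing in the labels says that the replicates were cultured separately, and the spreads and p-values therefore cover these 3 samples and may be technical.

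Vimentin is a type III intermediate filament protein that polymerises into a flexible cytoplasmic network. It is the usual filament of mesenchymal cells and is also made by many cultured lines. Fibronectin is a secreted dimer that cells assemble into fibrils through integrins, above all through the receptor of the alpha 5 and beta 1 chains. Both are classical readouts of the mesenchymal state. VIM-AS1 is a long non-coding RNA transcribed from the strand opposite VIM.

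VIM-AS1 and VIM overlap head to head on chromosome 10. In GENCODE release 29 on GRCh38, the build of the processing notes (hg38), VIM (ENSG00000026025.15) lies on the plus strand from 17228259 to 17237593 with 10 transcripts. VIM-AS1 (ENSG00000229124.6) lies on the minus strand from 17214239 to 17229985 with 2 transcripts. The first exon of transcript VIM-AS1-202, chr10:17229345-17229985, is 641 bp long and falls wholly inside the first exon of VIM-201, chr10:17229278-17229985. Of these 641 shared bases, 563 are VIM coding sequence and 78 are 5′ untranslated. The overlap makes up 32.2% of the merged exon length of VIM-AS1 (1992 bp) and 12.4% of that of VIM (5158 bp). It takes in 40.3% of the vimentin coding sequence. The other transcript, VIM-AS1-201, starts at 17226898 and shares no exon base with VIM. FN1 (ENSG00000115414.18) lies on the minus strand of chromosome 2 from 215360440 to 215436172, and none of its exons overlapped an opposite-strand exon in this annotation.

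**Figure D1:**
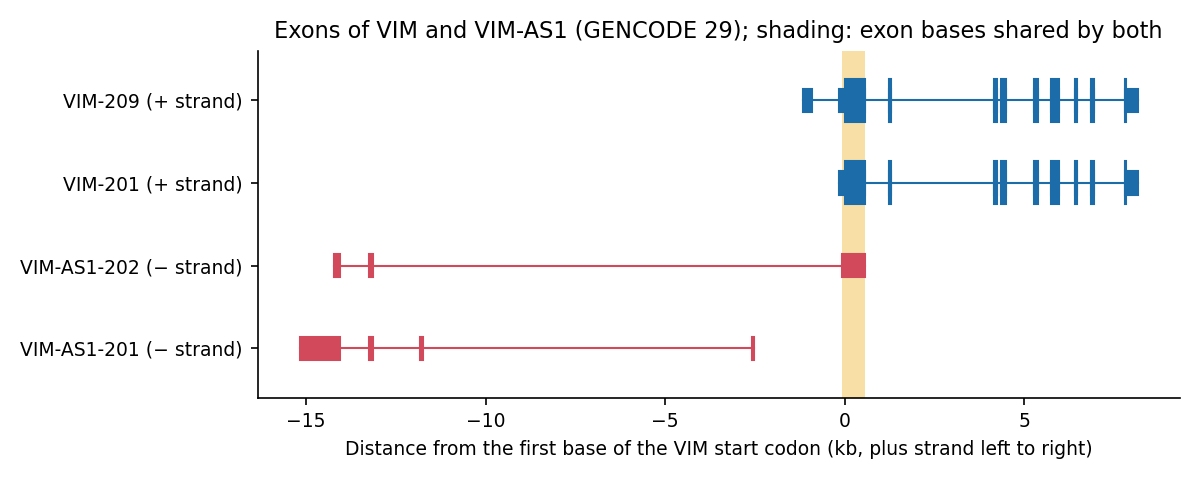
Exons (boxes, taller where coding) of 2 VIM and 2 VIM-AS1 transcripts in GENCODE 29, drawn to scale against the distance in kb from the first base of the VIM start codon. The shaded block marks the 641 bp that exons of both genes share, and transcript VIM-AS1-201 lies outside it.

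The shared exon is where a read can be placed under either name, so its start is shown from both strands. All 641 bases of the antisense exon were the reverse complement of the VIM exon. The 90 bases from the vimentin start codon, chr10:17229423-17229512, are given for VIM on the plus strand with the start codon in capitals, and for VIM-AS1 on the minus strand with its complement in capitals, both from GENCODE 29 transcripts.
VIM: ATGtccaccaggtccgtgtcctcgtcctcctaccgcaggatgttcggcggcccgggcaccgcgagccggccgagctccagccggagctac
VIM-AS1: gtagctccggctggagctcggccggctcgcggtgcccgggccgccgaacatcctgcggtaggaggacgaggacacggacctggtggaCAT

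The annotated 5′ end of VIM-AS1-202 is the same base, 17229985, as the 3′ end of the VIM exon. The next line shows 18 bases before and 42 after that start on the minus strand, chr10:17229944-17230003 (RefSeq, GRCh38.p14). The capitals mark the 5 bases before the start, which are the complement of GTAAG, the opening of the VIM intron on the plus strand.
VIM-AS1 start: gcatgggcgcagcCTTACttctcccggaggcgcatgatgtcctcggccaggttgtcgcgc

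RefSeq promoter windows (250 bases before to 50 after a start) were found for all 3 genes, with 2 for VIM-AS1. They were searched on both strands, overlapping matches counted, for the GC box GGGCGG, the TATA box TATAAA, the AP-1 motif TGACTCA, the CCAAT box (CCAAT) and, last, the E-box CACCTG, which SNAI and ZEB repressors can bind. The next lines show upstream bases with matches in capitals. They precede the VIM start at 17228241 (chr10:17227991-17228240, plus strand) and the VIM-AS1 start at 17226898 (chr10:17226899-17227148, minus strand). The FN1 bases precede the longest FN1 transcript (chr2:215436173-215436318, minus strand). These starts do not lie in the shared exon. Neither does the VIM-201 start at 17229278, at which no window was searched.
VIM upstream: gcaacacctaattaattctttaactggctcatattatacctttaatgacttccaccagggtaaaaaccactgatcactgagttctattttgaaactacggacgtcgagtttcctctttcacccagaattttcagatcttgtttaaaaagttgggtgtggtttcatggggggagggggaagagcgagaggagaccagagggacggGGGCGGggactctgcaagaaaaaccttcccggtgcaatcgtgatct
VIM-AS1 upstream of 17226898: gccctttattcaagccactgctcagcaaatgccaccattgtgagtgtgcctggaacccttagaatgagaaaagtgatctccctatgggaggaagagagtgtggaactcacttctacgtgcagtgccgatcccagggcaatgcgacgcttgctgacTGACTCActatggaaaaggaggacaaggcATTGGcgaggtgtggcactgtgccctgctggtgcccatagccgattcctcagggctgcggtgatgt
FN1 upstream: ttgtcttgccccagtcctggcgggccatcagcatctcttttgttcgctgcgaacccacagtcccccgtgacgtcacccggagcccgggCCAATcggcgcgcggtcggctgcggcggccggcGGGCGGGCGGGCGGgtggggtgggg

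The GC box had 1 match in the VIM window, 1 in the window of the VIM-AS1 start at 17229985 and 6 in the FN1 window. That FN1 window was set on the RefSeq start at 215436068, and the FN1 bases shown are only part of it. Of the 35116 promoter windows, 45.0% held the GC box. The AP-1 motif had 1 match, in the window of the VIM-AS1 start at 17226898, and 4.95% of windows held it. CCAAT had 1 match in that window and 1 in the FN1 window (34.6% of windows). The TATA box and the E-box had no match in these 4 windows, against 11.5% and 20.6% of all windows. These matches describe letters and not binding.

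VIM-AS1 received 1218, 563 and 745 counts in replicates 1, 2 and 3. As CPM, counts per 1000000 of the effective library size, this was 2784, 1298 and 2455, or 2179 ± 781 CPM (SD, n = 3), the 43rd highest mean of all rows. Among the 879 rows whose names end in -AS1 it ranked at 8. Its share of all gene-assigned counts was 0.296% in replicate 1 (95% Wilson interval 0.279 to 0.313%), 0.117% in replicate 2 (0.107 to 0.127%) and 0.258% in replicate 3 (0.240 to 0.277%). Replicate 2 was the lowest, and its interval did not reach those of replicates 1 and 3.

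VIM itself received 26, 10 and 9 counts in the same order. This was 59.4, 23.1 and 29.7 CPM, or 37.4 ± 19.4 CPM (SD, n = 3), at rank 2762. Replicate 1 was the highest and the other two lay close together. All 3 values lay above the 3-count level of 6.86, 6.92 and 9.89 CPM, which is the detection limit set by counting. With 9 to 26 counts, the Wilson interval of the VIM share was 0.00431 to 0.00925% for replicate 1, 0.00112 to 0.00381% for replicate 2 and 0.00164 to 0.00591% for replicate 3. The intervals of replicates 1 and 3 overlapped and those of replicates 1 and 2 did not. These intervals cover counting error only.

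FN1 received 32, 77 and 27 counts. This was 73.1, 177 and 89.0 CPM, or 113 ± 56.2 CPM (SD, n = 3), at rank 1253. Replicate 2 was the highest, the reverse of its place for VIM-AS1, and replicates 1 and 3 lay close together. The Wilson intervals of the FN1 share were 0.0128 to 0.0199% in replicate 2, 0.00550 to 0.0110% in replicate 1 and 0.00642 to 0.0136% in replicate 3. Those of replicates 2 and 3 overlapped and those of replicates 1 and 2 did not.

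**Figure D2:**
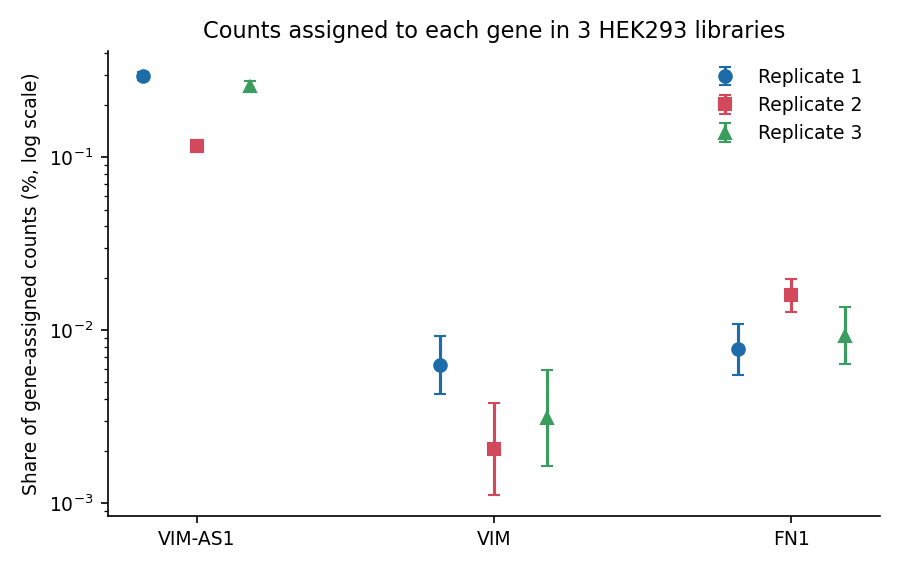
Share of gene-assigned counts (percent, log axis) of VIM-AS1, VIM and FN1 in each of the 3 HEK293 libraries; points are libraries and bars are 95% Wilson intervals for counting error. VIM-AS1 lies between 0.117 and 0.296% and VIM below 0.00925%; replicate 2 is low for VIM-AS1 and high for FN1.

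The antisense name held nearly all counts of the VIM locus. VIM-AS1 had 46.8, 56.3 and 82.8 counts for each VIM count in replicates 1, 2 and 3. The log2 ratio of VIM-AS1 to VIM (prior of 0.5 CPM) was 5.54, 5.78 and 6.35, or 5.89 ± 0.41 (SD, n = 3). Of the counts under either name, VIM-AS1 held 97.9% in replicate 1 (Wilson interval 97.0 to 98.6%), 98.3% in replicate 2 (96.8 to 99.0%) and 98.8% in replicate 3 (97.7 to 99.4%). These 3 intervals overlapped, whereas those of the VIM-AS1 share of the whole library did not for replicate 2. Per kilobase of merged exon, VIM-AS1 stood at 1094 ± 392 and VIM at 7.25 ± 3.76 CPM per kb (SD, n = 3 each), so the ratio within a library was 121, 146 and 214.

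These values describe counts under the 2 names and not which RNA the cells made. The library kit preserves strand, but whether the counting used strand, and in which direction, was not found in the labels or notes, and the counts of every row depend on it. That holds for FN1 and other genes with no opposite-strand exon, and for rows with no count, as well as for overlapping pairs, whose reads could stand under either name. Its part in these counts was not tested. The counter set aside 4207, 3564 and 3010 records as ambiguous between genes in the whole of each table, or 0.0184% of records. GENCODE lists another antisense gene inside VIM, AL133415.1, whose exons share 619 bp with those of VIM, and it had no row under that name.

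The same layout occurs at many genes, and the VIM pair was set beside them. Of the 867 rows named X-AS1 whose X is also a row, 407 pairs had at least 30 counts over the 3 libraries. The VIM pair ranked at 11 by summed CPM (2217 CPM) and at 72 by the share of the antisense name (98.3%), and 71 pairs had a higher share. The antisense name had more counts in all 3 libraries in 208 pairs, or 51.1%, and the gene had more in 147. The median antisense share was 68.1%. Among the 287 pairs that share exon bases in the annotation, as VIM and VIM-AS1 do, the antisense name led in all 3 libraries in 165 (57.5%). Among the 112 pairs that share none it led in 36 (32.1%). The difference between these groups was not tested, and a share as high as that of VIM-AS1 was thus not particular to it.

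**Figure D3:**
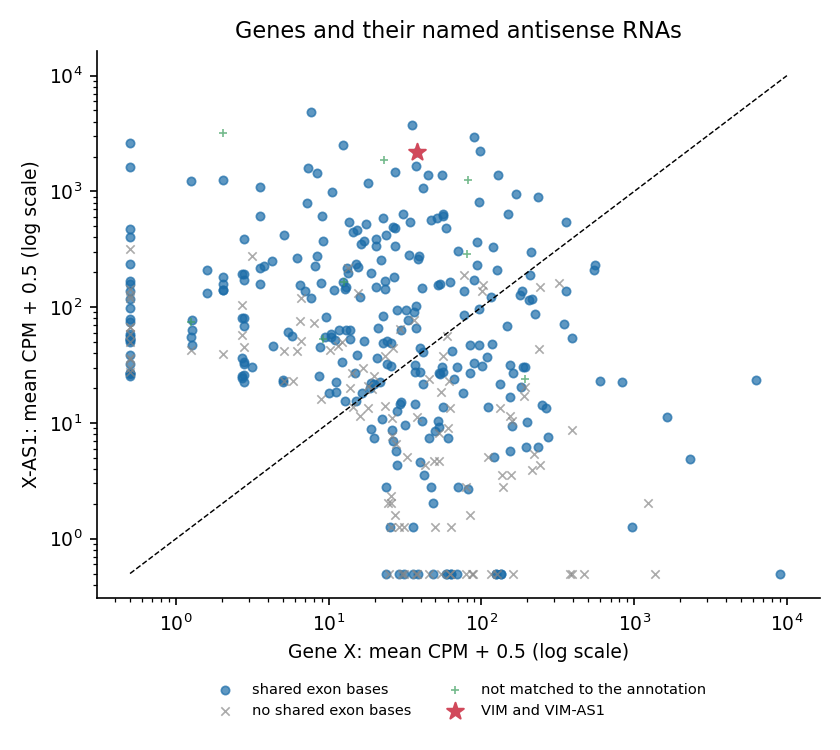
Mean CPM + 0.5 of X-AS1 against that of X (log axes) for the 407 pairs with at least 30 counts; each point is a pair, marked by whether its exons overlap in GENCODE 29, and the dashed line marks equal values. The VIM pair (star) lies in the upper part with other pairs around it, and pairs lie on both sides of the line.

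At the top of the pairs the order went both ways. TTN, which encodes the giant sarcomere protein titin, had 3265, 5280 and 2296 counts and TTN-AS1 had none. ENTPD1, an ectonucleotidase gene, had 2609, 2937 and 1877 against 12, 5 and 9 for ENTPD1-AS1. In the next 3 pairs the antisense name led, as at VIM: UGDH-AS1 held 99.9% of its pair, RNF219-AS1 held 99.1%, and PCNA-AS1 had 1593, 1158 and 1003 counts against 0, 2 and 0 for PCNA, the DNA polymerase clamp gene. Among the pairs nearest to VIM in share were DPYD-AS1 (98.4%) and LARGE-AS1 (98.2%). Both lay at lower levels than VIM-AS1, with 11, 31 and 13 counts for DPYD-AS1 and 11, 30 and 10 for LARGE-AS1.

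The counts of VIM-AS1 and FN1 differed between libraries by more than counting noise. The test compared each gene with a Poisson fit in edgeR over the 2564 genes whose count was 10 or more in each library, with Benjamini and Hochberg's adjustment. It called 1175 of these genes, or 45.8%, so a call by itself sets no gene apart. The adjusted p was 1.98e-54 for VIM-AS1 and 9.36e-05 for FN1 (edgeR Poisson fit). VIM-AS1 was 2.15-fold higher in replicate 1 and 1.89-fold higher in replicate 3 than in replicate 2. FN1 was 2.43-fold higher in replicate 2 than in replicate 1 and 1.99-fold higher than in replicate 3. Against the mean of replicates 1 and 3, replicate 2 stood at a log2 ratio of -1.01 for VIM-AS1 and 1.13 for FN1. Of the tested genes, 17.0% were called and lowest in replicate 2, as VIM-AS1 was, and 22.6% were called and highest there, as FN1 was.

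Both calls rested on replicate 2 and on the Poisson null. Without replicate 2 the adjusted p was 0.0622 for VIM-AS1 and 0.709 for FN1, and 263 of 2784 genes (9.45%) were called (edgeR Poisson fit). With a negative binomial null at the dispersion of replicates 1 and 3, the adjusted p was 0.114 for VIM-AS1 and 0.129 for FN1, and 79 of 2564 genes (3.08%) were called in edgeR. VIM had 9 counts in replicate 3 and did not reach the minimum. In the fit over all 14482 rows with a count, of which 20.1% were called, its adjusted p was 0.0741 (edgeR Poisson fit). Without replicate 3 VIM reached the minimum and was called, at an adjusted p of 0.0386, in a fit that called 1093 of 3186 genes (34.3%; edgeR Poisson fit). VIM was lowest in replicate 2, with a log2 ratio of -0.95 to the mean of the other replicates.

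Gene-assigned totals were 412066, 483114 and 289241, and 91.2% ± 0.472 (SD, n = 3) of records fell in no annotated feature. Replicate 2 stood apart in some measures of the whole tables. Gene-assigned counts were 1.83, 2.48 and 1.76% of all records in replicates 1, 2 and 3. The most abundant row, TSIX, took 17.9, 28.5 and 17.1% of gene-assigned counts in the same order. The common biological coefficient of variation was 0.177 between replicates 1 and 3, but 0.322 between 1 and 2 and 0.294 between 2 and 3. Their part in the values of VIM-AS1 and FN1 was not tested. With TSIX left out of the library size the adjusted p was 3.35e-55 for VIM-AS1 and 1.07e-04 for FN1 (edgeR Poisson fit).

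The genes whose pattern over the 3 libraries was nearest to a member were found by the Euclidean distance of log2(CPM + 1) deviations from each gene's own mean, over the 2564 genes. For VIM-AS1 they were LOC729867, NOC2L, MFSD11, ARIH2OS and CEP76, at distances of 0.0220 to 0.0395. MFSD11 was the one at a comparable level, with 1807, 818 and 1075 counts. Its exons overlap those of the splicing factor gene SRSF2 and other genes on the opposite strand over 1106 bp. For FN1 they were ZNF552, MIR133A1HG, ZNF833P, LGALS3 and LPAR6, at distances of 0.0134 to 0.0515. LGALS3, the gene of the lectin galectin-3, had 33, 79 and 29 counts, close to the 32, 77 and 27 of FN1. With 3 libraries such likeness is a description.

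Within the intermediate filament family, VIM lay in the middle of the genes with counts once length was allowed for. On the scale of CPM per kb, KRT10 led with 36.6 ± 8.23, followed by LMNB1, a nuclear lamin gene, with 23.2 ± 10.7 and KRT8, a simple-epithelial keratin gene, with 11.1 ± 2.53 (SD, n = 3 each). NEFL and NEFH, the light and heavy neurofilament genes, stood at 10.5 ± 5.48 and 9.01 ± 3.64, SYNM, the synemin gene, at 7.57 ± 1.26, VIM at 7.25 ± 3.76 and PRPH, the peripherin gene, at 4.88 ± 1.93 CPM per kb (SD, n = 3 each). From KRT8 to PRPH each neighbour in this order differed from the next by less than the larger of their SDs. INA, an internexin gene, followed at 1.05 ± 0.352 CPM per kb. VIM-AS1 was above every one of these rows on this scale.

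**Figure D4:**
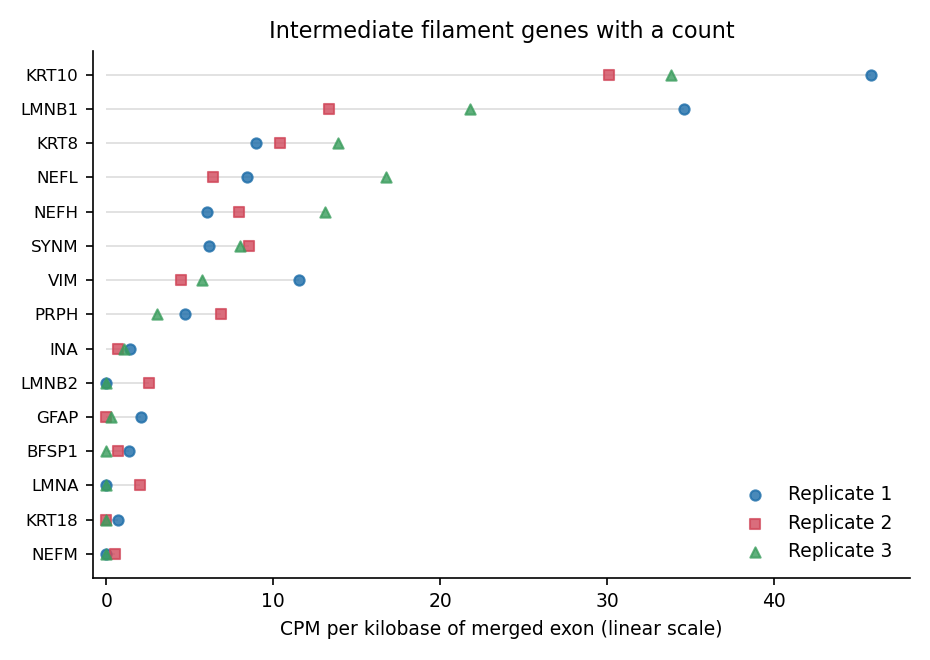
CPM per kilobase of merged exon (linear axis) for each intermediate filament gene with a count, one symbol per library. KRT10 and LMNB1 lie to the right, and VIM, with its highest value in replicate 1, overlaps NEFL, NEFH, SYNM and PRPH.

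Of the 10 type III and IV filament genes, 8 had a count, 3 had at least 10 counts in every library (NEFL, NEFH and SYNM) and 1 was called. NEFL had 16, 12 and 22 counts (adjusted p = 0.0377, edgeR Poisson fit) and was highest in replicate 3. DES, the desmin gene of muscle, and NES, the nestin gene of progenitor cells, had no count. Of 14 keratins, 3 had a count: KRT10, KRT8 and KRT18, the last with 1, 0 and 0 counts. KRT10 and KRT8 reached 10 counts in every library and neither was called, beside 45.8% of all tested genes. KRT8 and KRT18, whose products pair into the same filament, share 525 bp of exon on opposite strands. Of 5 lamins and lens filaments, 4 had a count and LMNB1 alone reached 10 counts in every library. LMNB1 was called, with 55, 21 and 24 counts (adjusted p = 0.00163, edgeR Poisson fit) and, like VIM, its highest CPM in replicate 1. LMNA, the A-type lamin gene, had 0, 6 and 0.

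Genes that anchor or modify vimentin filaments had few counts, as most rows did. In the whole of the 26485 rows, 14482 had a count and 2564 reached 10 in every library. Of 7 plakin cytolinkers, which tie filaments to other structures, 5 had a count and PPL, the periplakin gene, led with 29, 33 and 16 counts. DSP, the desmoplakin gene, had 12, 11 and 7, and PLEC, the plectin gene and the plakin best known for binding vimentin, had 1, 0 and 0 (PLEC was chosen after its values were seen). EPPK1 and EVPL had none. Of 10 kinases known to phosphorylate vimentin, 9 had a count, and none reached 10 in every library. AKT1 had 13, 9 and 12, CDK1, the mitotic kinase, 2, 11 and 12, and AURKB none. Over genes with a count the median was 15.45 CPM for the plakins and 3.05 CPM for the kinases, beside 7.89 CPM for all rows.

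FN1 had been chosen as the most counted of the mesenchymal genes, so its place among them is no result. Most of the others had no count. Of 18 such genes, 7 had a count, beside 14482 of all 26485 rows. FN1 alone reached 10 counts in every library, as did 2564 of all rows, and it was called. The median over all 18 rows was 0 CPM and over the 7 with a count 19.2 CPM, where the median of all rows with a count was 7.89 CPM. FN1 had 1.23, 7.70 and 3.00 times the CPM of VIM in replicates 1, 2 and 3. Per kilobase the order was not the same in each library, with FN1 at 0.367, 2.29 and 0.894 times VIM, and the means of 6.54 ± 3.25 and 7.25 ± 3.76 CPM per kb (SD, n = 3 each) differed by less than their spread. ACTA2, the smooth muscle actin gene, had 7, 8 and 7 counts, with 516 bp of exon shared with ACTA2-AS1, and THY1, a surface glycoprotein gene, had 7, 12 and 8. COL1A1 and COL1A2, the genes of type I collagen, and CDH11 were among the 11 with no count, which allows up to 6.86, 6.92 and 9.89 CPM in replicates 1, 2 and 3.

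Fibronectin receptors had few counts, as most rows did. Of 12 genes 11 had a count and none had 10 in every library, beside 14482 and 2564 of all 26485 rows. The median was 6.78 CPM over all 12 and 8.21 CPM over those with a count. All rows with a count had a median of 7.89 CPM. ITGB8 had 7, 9 and 5 counts, ITGA4 7, 0 and 8, ITGB3 5, 11 and 1, and ITGB6 none. ITGB1, the beta chain common to many receptors, had 2, 6 and 4, and its alpha 5 partner ITGA5 had 1, 0 and 3 (ITGA5 was chosen after its values were seen).

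Among 13 matrix partners of fibronectin, 9 had a count and LAMB1, a laminin chain gene, led with 22, 27 and 16 counts (adjusted p = 0.794, edgeR Poisson fit). VTN, the vitronectin gene, had 9, 3 and 4, THBS1, the thrombospondin gene, 7, 11 and 0, and HSPG2, the perlecan gene, 0, 10 and 0. Of 12 cross-linkers and proteases of the matrix, 8 had a count and 2, LOX and TIMP3, reached 10 in every library. Neither was called, beside 45.8% of all tested genes. LOX, which cross-links collagen and elastin, had 69, 98 and 59 counts or 193 ± 34.1 CPM (SD, n = 3), with 138 bp of exon over SRFBP1, and like FN1 it had its highest CPM in replicate 2 (adjusted p = 0.126, edgeR Poisson fit). PLAT had 19, 28 and 9, TIMP3, an inhibitor of matrix proteases, 15, 14 and 11, LOXL2 9, 13 and 14, and MMP2, MMP9 and MMP14 none.

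**Figure D5:**
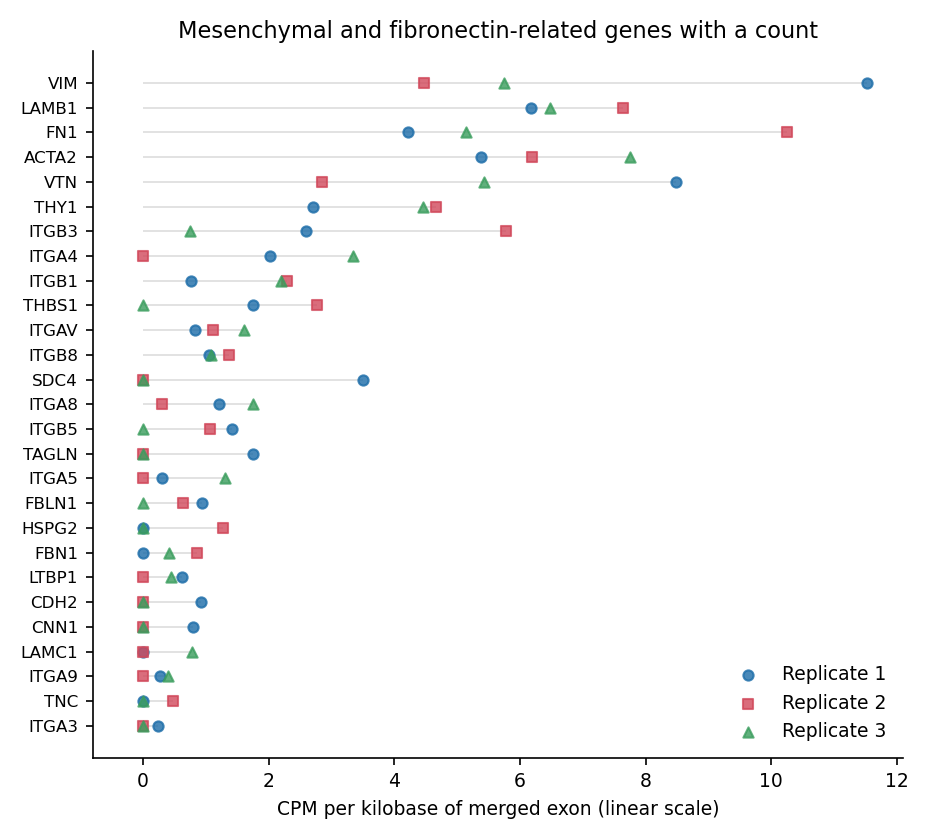
CPM per kilobase of merged exon (linear axis) for each mesenchymal gene, fibronectin receptor or matrix partner with a count, one symbol per library. VIM, LAMB1, FN1 and ACTA2 have the highest means, and the library values of VIM and FN1 overlap.

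Upstream regulators of these genes were counted at different levels. Of all 26485 rows, 14482 had a count, with a median of 7.89 CPM, and 2564 reached 10 in every library. Of 11 transcription factors of the epithelial to mesenchymal transition, 9 had a count and none reached 10 in every library. The median of those with a count was 3.84 CPM. FOXC1 had 7, 8 and 7 counts, PRRX1 2, 12 and 0, TWIST1 10, 0 and 1, TWIST2 6, 2 and 0, and SNAI1, a repressor of E-cadherin, and FOXC2 none. Of 15 TGF-beta ligands, receptors and SMADs, a pathway that induces FN1, 14 had a count and 3 reached 10 counts in every library. Their median, over those with a count, was 10.4 CPM. SMAD3 was called, with 46, 34 and 13 counts (adjusted p = 0.0229, edgeR Poisson fit). SMAD3, which carries the signal to the nucleus, was lowest in replicate 3. TGFB3 had 17, 30 and 18 counts, ENG 12, 16 and 13 and TGFB1 9, 5 and 8, and TGFBR2, the receptor that binds the ligand, had none.

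Markers of other cell types were compared as whole lists. Of 17 epithelial genes 9 had a count, with summed levels of 281, 334 and 326 CPM in replicates 1, 2 and 3. The splicing regulator gene ESRP2 led with 73, 107 and 64 counts (adjusted p = 0.0694, edgeR Poisson fit). Its exons lay over opposite-strand exons for 149 bp. ESRP2 (mean 208 CPM) and KRT8 (76.3 CPM) made up most of the list's mean sum of 314 CPM. EPCAM, ESRP1 and GRHL1 had no count. None of the 11 fibroblast and muscle genes had a count, DCN, COL6A3 and ACTC1 among them. Of 12 blood and endothelial genes 3 had a count, LYZ and PECAM1 among them (75.4, 46.1 and 39.6 CPM summed), and of 12 neuronal genes 8 had a count (185, 175 and 211 CPM summed), led by SYT1 with 30, 41 and 19. These lists hold no gene that defines HEK293. Over all 17 lists, 176 genes had a row, 17 reached 10 counts in every library and 5 were called (VIM-AS1, FN1, LMNB1, NEFL and SMAD3), or 29.4% of those tested beside 45.8% of all tested genes. Exons of 13 of the 17 overlap opposite-strand exons, beside those of 63 of all 176 listed genes. The open strand option applies to all 176 rows, those without such an overlap or without a count included.

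Genes near the members in the genome had few counts, as most rows did (2564 of 26485 had at least 10 in every library). Around VIM, TRDMT1, an RNA methyltransferase gene, had 1, 3 and 0 counts, CUBN, the cubilin gene, 1, 0 and 1, STAM 0, 4 and 0, and ST8SIA6-AS1 1, 0 and 0, and ST8SIA6 and HACD1 had none. Around FN1, MREG had 11, 13 and 8, ABCA12 5, 15 and 3, BARD1 0, 8 and 0, PECR 1, 1 and 0, and ATIC and LINC00607 none. The high count of VIM-AS1 was thus not found in the neighbouring rows listed here.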

How the data were processed

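The deposited tables hold raw whole-number counts per gene symbol, 1 table per replicate, and the 5 summary lines of the counter were left out of library sizes. Per the labels' protocols, ribosomal RNA was removed from total RNA before directional libraries were made, although the titles name mRNA sequencing. Per the submitters' processing notes, Trimmomatic, TopHat2 (given as 2.2.5), HTSeq 0.11.2 and hg38 were used; neither the annotation nor the strand option was found there. Reads aligned to more than 1 place formed 6.77% of records.

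CPM used TMM effective library sizes (edgeR 4.0.16, R 4.3.3). Rows with a minimum of 10 counts per library were tested with an intercept-only edgeR fit at dispersion 0, with adjusted p-values called under 0.05. Counts were also simulated with Poisson noise alone and replicate 2 changed. The test called 42.9% of 49 genes changed 1.5-fold, 85.1% of 47 changed 2-fold, 100% of 95 changed 4-fold and 0.392% of 2806 unchanged. The 3 libraries themselves had a common biological coefficient of variation of 0.276, so 0.392% is not a false-call rate for them. Exon lengths and overlaps came from GENCODE 29, which matched 23899 rows by name and 686 by another symbol and is a stand-in for the annotation used to count. Each list gave its 4 highest members, its called members and up to 3 without a count; some genes named by this rule are not reported here. The members and lists were chosen with earlier results of these data known. Alternatives were DESeq2 1.42.0 size factors, total counts, other filters and priors, transcript length and leaving out each replicate.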

Additional observations from a re-analysis of the deposited data

How the results depend on the processing

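Leaving out each replicate in turn gave 263 to 1093 called genes against 1175, VIM-AS1 at 1822 to 2765 CPM, VIM at 25.6 to 47.0 CPM and FN1 at 85.6 to 129 CPM. The log2 ratio of VIM-AS1 to VIM ran from 5.66 to 6.07. Without replicate 2 alone, 263 genes were called. The test without a count filter called 2914 of 14482 rows, since more rows were tested, and the negative binomial null called 79. Per kilobase of the longest transcript, VIM stood at 14.02, VIM-AS1 at 1613 and FN1 at 12.3 CPM per kb, since that length is shorter than the merged exons. The log2 ratio per kilobase was 7.17, since VIM-AS1 has the shorter exons. With a minimum of 5 counts, 32 listed genes passed in place of 17. Of 73 values recomputed, 60 were taken as the same. A p-value had to keep its side of the threshold, and a level or ratio had to move within the spread. For a number of genes a larger change was allowed, such as 786 called without replicate 1 against 1175. VIM had 9 to 26 counts, so its values carry a wide counting error. No paired analysis was possible because the 3 libraries form a single group.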
